A study of Mus musculus with 8 samples.

Results

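The 10 genes described here are components of the circadian clock that were chosen by name: the period genes Per1, Per2 and Per3, the output transcription factors Dbp and Tef, the nuclear receptors Nr1d1 and Nr1d2, the activator Bmal1 (Arntl in older annotations), and the repressors Ciart and Bhlhe41. Each was matched to 1 of the 40659 gene identifiers in the count table, and all 10 passed the filter on low counts that left 17252 genes for testing. They were measured by polyA-RNA sequencing of whole hippocampus from 8 mice, 4 injected with hpCTL and 4 with hp708. None of the 10 passed the test between hp708 and hpCTL, while some of them varied together from mouse to mouse. The values are described gene by gene and then library by library.

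The circadian clock is a feedback loop of transcription. The proteins CLOCK and BMAL1 bind DNA elements called E-boxes and switch on the Per and Cry genes, whose products return to the nucleus and block CLOCK and BMAL1. A second loop runs through Nr1d1 and Nr1d2, which encode the receptors REV-ERBα and REV-ERBβ and repress Bmal1 at elements called ROREs. DBP and TEF, 2 members of the PAR bZIP family of transcription factors, carry the rhythm to further genes through D-boxes. CIART (also named CHRONO) represses CLOCK and BMAL1, and BHLHE41 (also named DEC2) represses at E-boxes. The master clock lies in the suprachiasmatic nucleus of the hypothalamus, and clock genes also cycle in the hippocampus, with Dbp and Nr1d1 at their highest at a time of day when Bmal1 is low.

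All mice were wild-type C57BL/6JRj males that received an rAAV, an adeno-associated virus used as a vector, in the dorsal and ventral hippocampus at postnatal week 7 to 8. In hp708 the virus carried a hairpin for miR-708-5p and in hpCTL a control hairpin, in both with EGFP under the human synapsin promoter, which is active in neurons, so that glia were not targeted although the tissue sequenced held all cell types. The tissue was taken 4 weeks after surgery by the methods, and at postnatal week 12 to 13 by the sample labels. It came from mice whose light-dark cycle of 12 h was inverted. The time of day at which each mouse was dissected is not given in the sources used here, so it cannot be set beside the clock genes. The libraries held 22606824 to 28462428 counts, and the 10 genes had between 177 counts (Ciart) and 11561 counts (Tef) in a library. Labels conflict for 1 mouse: the one sequenced as hp708 replicate 1 appears among the hpCTL mice in source data for qPCR. Its library was kept as labelled, and results are also given without it.

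The libraries held hippocampal markers, with 533 to 661 CPM (counts scaled to the size of the library with TMM factors) summed over 5 genes of CA1 pyramidal cells and 162 to 316 CPM over 5 genes of dentate granule cells. Markers of the suprachiasmatic nucleus were low but for Vip. Six6 had 0 counts in every library, which allows up to 0.107 to 0.131 CPM, Nms reached at most 0.041 CPM and Prok2 0.306 CPM, and Avp was between 0.0724 and 1.24 CPM. Vip, which hippocampal interneurons also express, was at 9.25 to 17.7 CPM. In bulk tissue, fewer cells of a type and less RNA per cell cannot be told apart.

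The microRNA is shown first, since pairing of its seed (bases 2 to 8, in capitals) with a 3'UTR is how a microRNA recognizes a target. The sequence is that of RefSeq on GRCm38.p6, where mature miR-708-5p lies at chr7:96249450-96249472 on the plus strand.
mmu-miR-708-5p: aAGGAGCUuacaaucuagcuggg
The longest annotated 3'UTR of each gene was searched for the reverse complement of the seed, with an adenine opposite base 1 (8mer), without it (7mer-m8), or with the adenine but without pairing at base 8 (7mer-A1). A site was found in 3 of the 10 clock genes, and in 26.5% of the 14807 tested genes that have an annotated 3'UTR. The Tef site is an 8mer at base 2870 of a 3'UTR of 3393 bases, chr15:81710530-81710559 on the plus strand of GRCm39. The Bmal1 site is a 7mer-A1 at base 961 of 1909, chr7:112913776-112913805 on the plus strand. The Bhlhe41 site is a 7mer-m8 at base 2438 of 4609, chr6:145806122-145806151 on the minus strand. Capitals mark the site.
Tef 3'UTR: tccactcaggcAGCTCCTAcagtcctccag
Bmal1 3'UTR: cctacaggtatGCTCCTActcaaaggccac
Bhlhe41 3'UTR: tgatgggctaaAGCTCCTgaaactgaacaa
These are matches of letters, and none of the 3 genes was lower in hp708 at the threshold.

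Promoter windows of 250 bases before to 50 after a RefSeq start were present for 9 of the 10 genes (12 windows, all but Per2), and each matched GRCm39 exactly once. On both strands they were searched for the E-box CACGTG, which reads the same on both strands, the E'-box CACGTT, the D-box TTATGTAA, the RORE core TAGGTCA and the CRE TGACGTCA; the E-box and the E'-box differ in their last letter, so no match was counted as both. An E-box was in 5 of the 12 windows, and in 7.15% of all 32851 promoter windows. These belonged to 4 of the 9 genes, Per1, Tef (in both of its windows), Ciart and Bhlhe41, and 8.09% of all genes with a window had one. Ciart had 3 of them, at -116, -58 and -44 from the start, counting -1 as the base before it. Per3 had 2 D-boxes, at -205 and -158, a motif found in 0.938% of all windows. Nr1d1 had an E'-box on the opposite strand at -28 to -23 (4.68% of all windows), and Bmal1 a RORE at bases 31 to 37 after the start (2.61%). No window of the 9 genes held the CRE, which 1.79% of all windows did, and none of the 5 motifs was in the windows of Dbp and Nr1d2. All stretches that hold a motif are shown, with the motif in capitals and GRCm39 positions. Ciart lies on the minus strand, at chr3:95789639-95789668 and chr3:95789574-95789603, and so does Per3, at chr4:151129309-151129338 and chr4:151129262-151129291. Tef is at chr15:81686735-81686764 and chr15:81695465-81695494, Per1 at chr11:68989597-68989626 and Bmal1 at chr7:112806737-112806766, all on the plus strand. Nr1d1 is at chr11:98666214-98666243 and Bhlhe41 at chr6:145811282-145811311, both on the minus strand.
Ciart distal E-box: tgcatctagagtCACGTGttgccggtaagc
Ciart proximal E-boxes: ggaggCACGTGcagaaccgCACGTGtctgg
Per3 distal D-box: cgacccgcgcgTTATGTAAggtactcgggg
Per3 proximal D-box: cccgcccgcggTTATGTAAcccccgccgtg
Tef first-window E-box: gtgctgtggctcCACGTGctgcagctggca
Tef second-window E-box: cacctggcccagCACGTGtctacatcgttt
Per1 E-box: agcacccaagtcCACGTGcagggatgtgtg
Nr1d1 E'-box: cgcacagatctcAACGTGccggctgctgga
Bhlhe41 E-box: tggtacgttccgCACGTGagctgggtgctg
Bmal1 RORE: aaggcagaaagTAGGTCAgggacggaggtg
No binding was measured here, so these are descriptions of sequence.

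Divided by the length of their annotated exons, the levels of the 10 genes spanned from Tef at 47.9 ± 6.66 CPM per kilobase (SD, n = 8 mice) to Bmal1 at 2.14 ± 0.219. Tef was followed by Nr1d1 (20.6 ± 2.60 CPM per kilobase), and both stood clear of the next gene in every mouse. Dbp (13.4 ± 2.73), Per1 (11 ± 1.26), Nr1d2 (10.6 ± 1.05) and Per2 (9.18 ± 0.637) came next, and the ranges of neighbours in this order overlapped. Per1 exceeded Nr1d2 in only 4 of 8 mice. Bhlhe41 (6.81 ± 1.25) and Per3 (6.30 ± 0.965) overlapped as well, with Bhlhe41 higher in 5 of 8 mice. Ciart (3.83 ± 0.748) was lower than Per3 in 8 of 8 mice, although their ranges overlapped, and above Bmal1 throughout. Where exons lie opposite another gene, the counts could be affected by it. The strand setting of the counting, and how it treated reads over 2 genes, are not given in the sources used here. The longest such overlaps took 52.3% of the exon bases of Nr1d1 (opposite Thra), 22.1% of Bhlhe41 (opposite Gm43909), 15.5% of Dbp (opposite Sphk2), 11.1% of Tef (opposite Gm62928) and 9.59% of Ciart (opposite C920021L13Rik), and shorter ones were found for Per1, Per3 and Bmal1. Gm62928 is not in the count table, and the overlap of Tef with Gm17597, which is, took 2.34%.

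**Figure D1:**
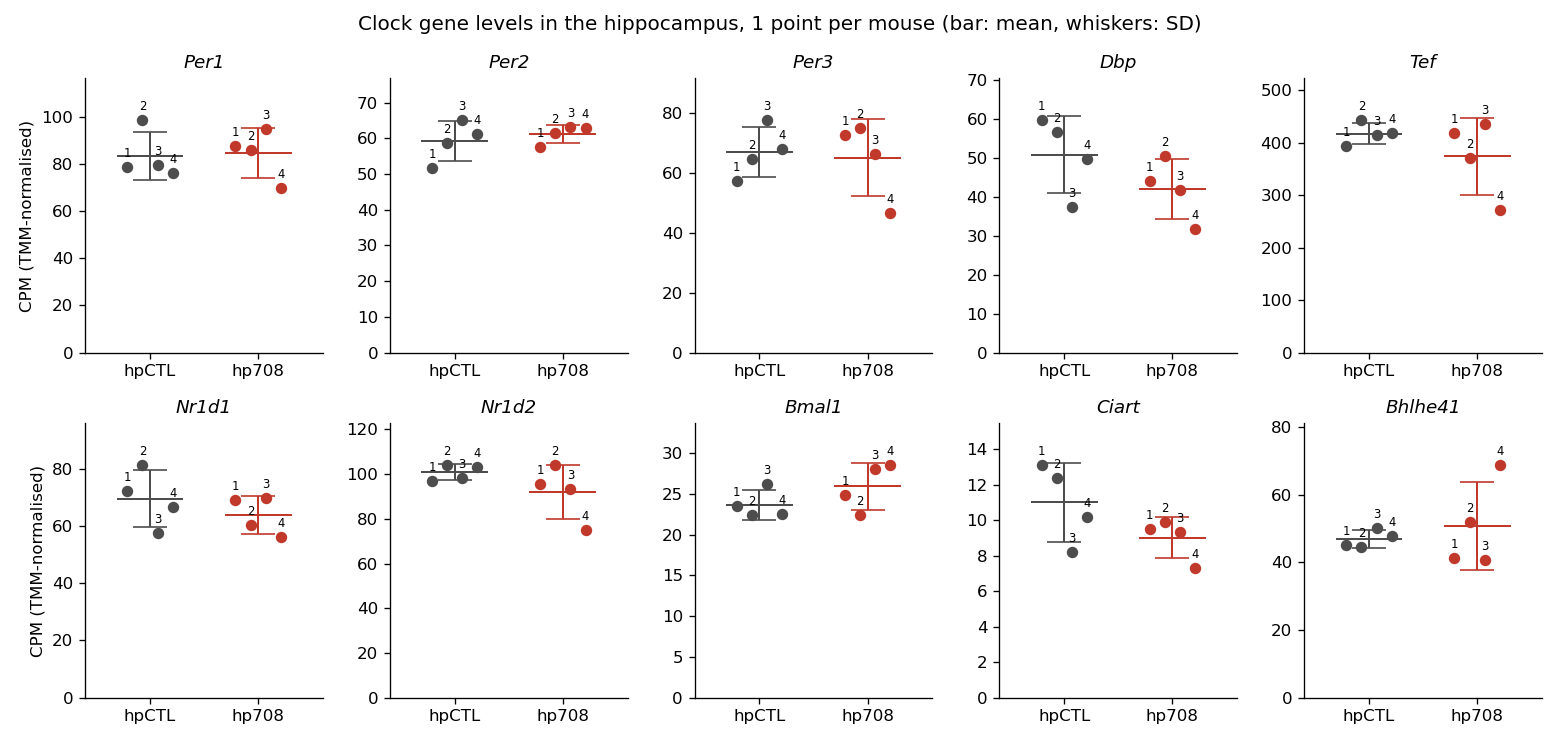
Level of each clock gene in CPM (vertical axis, from 0) in hpCTL and hp708 mice, with 1 numbered point per mouse, a bar at the group mean and whiskers for the SD (n = 4 per group). The groups overlap for all 10 genes, and hp708 replicate 4 is the lowest point for 7 of them.

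To ask whether overexpression of miR-708-5p changed the clock genes, hp708 was compared with hpCTL in one fit across all genes, with edgeR's quasi-likelihood test and 3 surrogate variables for unknown variation, and p-values adjusted over all tested genes to a false discovery rate (FDR). None of the 10 clock genes passed an FDR of 0.05, where 1 of the 17252 tested genes did (0.0058%), and none had an unadjusted p below 0.05, against 1328 (7.7%) of all tested genes. The CPM of the groups overlapped for all 10, while 1.51% of all tested genes did not overlap. With DESeq2 and 3 surrogate variables the counts were also 0 of 10 for both thresholds, where 96 of all tested genes passed the FDR and 5.02% had an unadjusted p below 0.05. The median log2 fold change of the 10 genes was -0.06, beside -0.01 over all tested genes, with 7 values below 0 and 3 above. The count of unadjusted p-values depended on the libraries. Without the library labelled hp708 replicate 1, the one with conflicting labels, the median moved to -0.21, 5 clock genes (Dbp, Tef, Nr1d1, Nr1d2 and Bhlhe41) had an unadjusted p below 0.05 beside 12.2% of all tested genes, and 56 genes in all passed the FDR, none of them a clock gene. The count of clock genes was 4 without hp708 replicate 2 (Dbp, Tef, Nr1d2 and Ciart, beside 12% of all tested genes). It was 3 without hpCTL replicate 1 (9.67% of all) and 3 without hp708 replicate 3 (8.02% of all), Dbp, Tef and Nr1d2 each time, 1 without hpCTL replicate 3 (Dbp, beside 2.98% of all), and 0 without any other mouse. With the surrogate variables also left out, no clock gene had an unadjusted p below 0.05 without that library (3.42% of all tested genes did), and the median was -0.12.

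The period genes encode the repressors that close the main loop. Per1 was at 78.9, 98.7, 79.6 and 76.2 CPM in hpCTL replicates 1 to 4 and at 87.8, 86.1, 94.9 and 70 CPM in hp708 replicates 1 to 4. Both the highest hpCTL mouse (replicate 2) and the lowest hp708 mouse (replicate 4) stood apart from the rest of their group. The log2 fold change was 0.04 (standard error 0.124, 95% interval -0.25 to 0.33, quasi-likelihood FDR 0.956), and with each mouse left out it ranged from -0.10 (without hp708 replicate 1) to 0.14 (without hpCTL replicate 2). Per2 was at 51.8, 58.7, 65.1 and 61.1 CPM in hpCTL and 57.7, 61.4, 63.2 and 63.0 CPM in hp708. All hp708 values fell inside the hpCTL range, and Per2 varied least of the 10 genes, 1.26-fold from the lowest mouse to the highest. Its log2 fold change was 0.01 (standard error 0.0533, 95% interval -0.11 to 0.14, FDR 0.964), and between -0.01 and 0.05 with each mouse left out. Per3, the third period gene, was at 57.4, 64.6, 77.7 and 68.0 CPM in hpCTL and 72.6, 75.1, 66.4 and 46.7 CPM in hp708. Here hp708 replicate 4 was below all other mice. The log2 fold change of -0.05 (standard error 0.148, 95% interval -0.40 to 0.30, FDR 0.955) became 0.10 with no surrogate variables and without that mouse. In the fit with surrogate variables it ranged from -0.21 (without hp708 replicate 1) to 0.10 (without hpCTL replicate 3).

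Dbp and Tef are direct outputs of the clock. Dbp was at 59.6, 56.7, 37.3 and 49.6 CPM in hpCTL replicates 1 to 4 and at 44.1, 50.3, 41.7 and 31.8 CPM in hp708 replicates 1 to 4. It had the widest span of the 10 genes, 1.87-fold, and low values were found in both groups, in hpCTL replicate 3 and hp708 replicate 4. The log2 fold change was -0.23 (standard error 0.121, 95% interval -0.51 to 0.06, quasi-likelihood FDR 0.717), and an exact permutation test over the 8 libraries, two-sided, gave p = 0.229 for the difference in mean log2 CPM. With each mouse left out, the log2 fold change ranged from -0.37 (without hp708 replicate 2) to -0.15 (without hp708 replicate 4). Tef, the most abundant of the 10, was at 394, 443, 414 and 419 CPM in hpCTL and at 419, 371, 435 and 271 CPM in hp708. The log2 fold change of -0.11 (standard error 0.129, 95% interval -0.41 to 0.19, FDR 0.882) depended on the libraries, with the surrogate variables estimated again each time. It was -0.02 without hp708 replicate 4, -0.35, -0.26 and -0.29 without hp708 replicates 1, 2 and 3, and -0.28 and -0.21 without hpCTL replicates 1 and 4. Hlf, the remaining member of the PAR bZIP family, is named here because of its values. It was at 116, 157, 140 and 159 CPM in hpCTL and at 140, 125, 137 and 63.7 CPM in hp708, lowest in the same mouse as Dbp and Tef.

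Nr1d1 and Nr1d2 encode the receptors that repress Bmal1. For Nr1d1, values of 72.3, 81.4, 57.6 and 66.9 CPM in hpCTL stood beside 69.1, 60.5, 69.8 and 56.2 CPM in hp708, with hpCTL replicate 3 below 3 of the 4 hp708 mice. Its log2 fold change was -0.07 (standard error 0.110, 95% interval -0.32 to 0.19, quasi-likelihood FDR 0.922), and with each mouse left out it ranged from -0.22 (without hp708 replicate 1) to 0.03 (without hpCTL replicate 2). For Nr1d2, values of 97.1, 104, 98.2 and 103 CPM in hpCTL stood beside 95.5, 104, 93.2 and 74.9 CPM in hp708. The 4 hpCTL mice lay close together and hp708 replicate 4 was well below them. The log2 fold change was -0.13 (standard error 0.0801, 95% interval -0.32 to 0.06, FDR 0.749). It was -0.08 without that mouse (-0.04 with the surrogate variables left out as well), -0.21, -0.23 and -0.22 without hp708 replicates 1, 2 and 3, and -0.21 without hpCTL replicate 1.

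Bmal1 encodes the activator on which the loop depends, and its cycle runs roughly opposite to that of Dbp. It was at 23.5, 22.4, 26.2 and 22.5 CPM in hpCTL and at 24.8, 22.4, 28.0 and 28.5 CPM in hp708. The highest values were in hp708 replicates 3 and 4, followed by hpCTL replicate 3. Its log2 fold change was 0.13 (standard error 0.0687, 95% interval -0.03 to 0.29, quasi-likelihood FDR 0.712), the lowest FDR of the 10 genes and still far from the threshold.

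Ciart and Bhlhe41 encode repressors of CLOCK and BMAL1 that are themselves induced through E-boxes. Ciart was at 13.1, 12.4, 8.2 and 10.2 CPM in hpCTL and at 9.49, 9.90, 9.33 and 7.30 CPM in hp708. Its order of mice was nearly that of Dbp, with hpCTL replicates 1 and 2 highest and hp708 replicate 4 lowest. The log2 fold change was -0.22 (standard error 0.147, 95% interval -0.56 to 0.13, quasi-likelihood FDR 0.773), and it ranged from -0.33 (without hp708 replicate 2) to -0.15 (without hpCTL replicate 2) with each mouse left out. Bhlhe41 was at 45.1, 44.5, 50 and 47.9 CPM in hpCTL and at 41.2, 51.9, 40.8 and 68.7 CPM in hp708. Both the lowest mice and the highest mouse were in hp708. Its log2 fold change was -0.01 (standard error 0.128, 95% interval -0.31 to 0.29, FDR 0.988), and 0.11 without surrogate variables. With each mouse left out it ranged from -0.15 (without hp708 replicate 4) to 0.26 (without hp708 replicate 1).

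**Figure D2:**
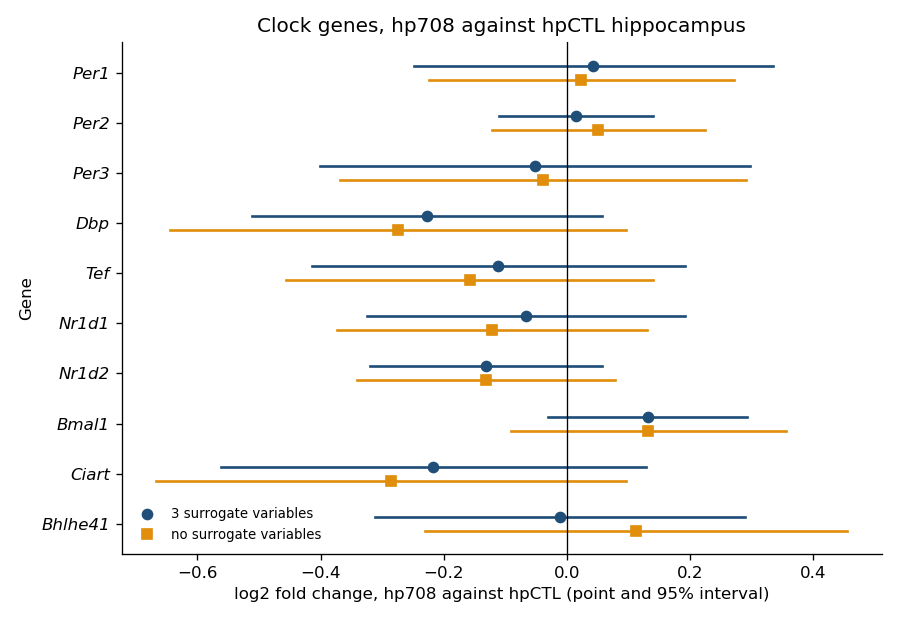
Log2 fold change of each clock gene, hp708 against hpCTL (horizontal axis, point with its 95% interval), with 3 surrogate variables (circles) and with none (squares). All 20 intervals include 0, and the widest lower bound is that of Ciart without surrogate variables, at -0.67.

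The intervals say what sizes of change these 8 mice leave possible under a given fit. For Per2 the interval with 3 surrogate variables ended at -0.11 and 0.14, and for Bmal1 at -0.03 and 0.29. For Dbp and Ciart it reached -0.51 and -0.56, so a fall of that size lay within what 4 mice a group allow. Without surrogate variables the intervals were wider, from -0.12 to 0.22 for Per2 and from -0.09 to 0.36 for Bmal1. They then reached -0.65 for Dbp and -0.67 for Ciart. The exact permutation test over the 70 assignments of the libraries gave p between 0.171 (Nr1d2) and 0.886 (Per1), where 0.0286 is the smallest it can give.

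Further genes of the pathway were counted in the same fit. Of 19 other clock genes, among them the activators Clock and Npas2, the repressors Cry1 and Cry2, the ROR receptors and the kinases and ubiquitin ligases that act on PER and CRY, none passed an FDR of 0.05, and 1 had an unadjusted p below 0.05, a smaller share than the 7.7% of all tested genes. This was Bhlhe40, the paralog of Bhlhe41, at 122, 112, 120 and 122 CPM in hpCTL and 103, 105, 114 and 113 CPM in hp708, with a log2 fold change of -0.14 (standard error 0.0538, unadjusted p = 0.0376, quasi-likelihood FDR 0.630). The median log2 fold change of the 19 was -0.02. None of 6 clock output genes passed either threshold, and the largest values among them were those of Tspan4 (-0.19), Nampt (-0.07) and Coq10b (-0.06).

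Between mice, the highest of the 8 values was in an hpCTL mouse for 8 of the 10 genes, where it was for 46.9% of all tested genes, and the lowest was in an hp708 mouse for 9 of the 10, where it was for 57.2% of all tested genes. The lowest values were mostly those of 1 mouse. In hp708 replicate 4, 7 of the 10 were at their lowest of all 8 mice (Per1, Per3, Dbp, Tef, Nr1d1, Nr1d2 and Ciart) and Bmal1 and Bhlhe41 were at their highest. This mouse thus held the highest or lowest value for 9 of 10 clock genes, and for 31.8% of all tested genes, with 16.6% of all tested genes at their lowest in it. On the log2 scale, its deviations from the mean of the 8 mice were -0.53 for Tef, -0.52 for Dbp, -0.48 for Per3, -0.42 for Ciart, -0.35 for Nr1d2, -0.26 for Per1 and -0.24 for Nr1d1, against 0.21 for Bmal1 and 0.51 for Bhlhe41. Per2 was the exception, at 0.07. In hpCTL replicate 3 the same 7 genes did not move together, with -0.28 for Dbp, -0.26 for Ciart, -0.20 for Nr1d1 and -0.07 for Per1 beside 0.25 for Per3, 0.08 for Tef and 0.04 for Nr1d2. Dbp and Ciart were highest in hpCTL replicates 1 and 2 (0.39 and 0.32 for Dbp, 0.41 and 0.33 for Ciart). In hpCTL replicate 1 Nr1d1 was at 0.12, Nr1d2 at 0.02, Tef at 0.01, Per1 at -0.08 and Per3 at -0.19. In hpCTL replicate 2 Nr1d1 (0.30), Per1 (0.24), Tef (0.18) and Nr1d2 (0.12) were above their means as well, and Per3 was at -0.02. That mouse held the highest value of 4 clock genes. Of the other 19 clock genes, 5 were lowest in hp708 replicate 4, as many as in hpCTL replicate 1 (5, beside 21.1% of all tested genes) and about as many as in hp708 replicate 2 (4, beside 16.6%). Among the 5 were Hlf and Npas2 (14.9 CPM, beside 16.0 to 27.4 CPM in the other mice), both named after their values were seen.

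**Figure D3:**
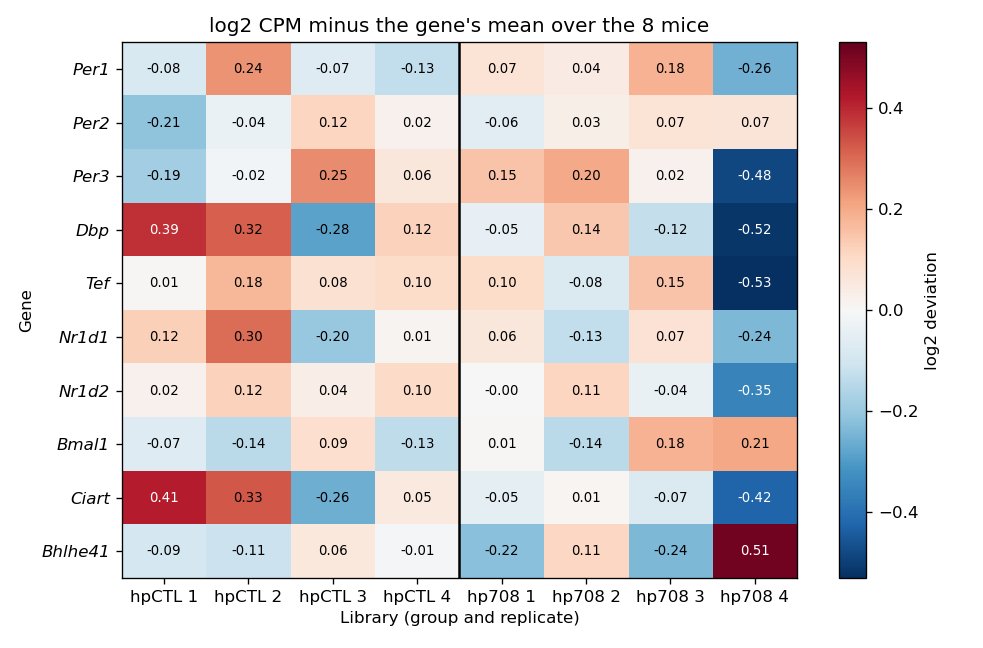
Log2 CPM of each clock gene (rows) in each mouse (columns, hpCTL left and hp708 right of the line), as the deviation from the gene's mean over the 8 mice, with red for higher and blue for lower. Dbp and Ciart deviate alike, and hp708 replicate 4 is blue for 7 genes and red for Bhlhe41 (0.51) and Bmal1 (0.21).

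The libraries that stood apart in the clock genes also stood apart in other lists, and the part of these lists in the clock values was not tested. Activity-induced immediate early genes, 10 genes such as Fos and Arc that neurons switch on within minutes of stimulation, summed to 712, 586, 385 and 445 CPM in hpCTL replicates 1 to 4 and to 449, 615, 476 and 381 CPM in hp708 replicates 1 to 4. Their highest sums were in hpCTL replicates 1 and 2 and hp708 replicate 2, the 3 mice with the most Dbp, and their lowest in hp708 replicate 4 and hpCTL replicate 3, the 2 mice with the least. Arc (mean 182 CPM) and Egr1 (mean 130 CPM) had the largest means of the 10, so they weighed most in these sums. In hp708 replicate 4, 5 of these 10 were at their lowest of the 8 mice, beside 16.6% of all tested genes. Fosb went the other way and was at its highest there, at 16.6 CPM beside 8.14 to 12.1 CPM in the other mice. None of the 10 passed the FDR or an unadjusted p of 0.05 between groups, and the largest log2 fold changes were those of Dusp1 (-0.32), Fos (-0.23) and Ier2 (-0.21). Glucocorticoid targets, 9 genes induced by the stress hormone receptor, summed to 373 to 409 CPM in hpCTL and 356 to 493 CPM in hp708, with the highest sum in hp708 replicate 4. The list was split in that mouse. Mt2 (119 CPM), Sgk1 (104 CPM), Fkbp5 (83 CPM), Nfkbia (32.6 CPM) and Plin4 (15.9 CPM) were at their highest of the 8 mice. Tsc22d3 (51.5 CPM) and Errfi1 (38.6 CPM) were at their lowest, and Zbtb16 and Pdk4 were at neither. Between groups 1 of the 9, Nfkbia, had an unadjusted p below 0.05, as 7.7% of all tested genes did (log2 fold change -0.27, quasi-likelihood FDR 0.648). Of 8 genes that respond to cold or heat, only Hspa8 did (-0.11, FDR 0.645, beside the same 7.7%), and their sums were 2180 to 2800 CPM in hpCTL and 2160 to 2470 CPM in hp708. Without surrogate variables neither Nfkbia (-0.14) nor Hspa8 (-0.13) had an unadjusted p below 0.05.

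Markers of other cell types differed between mice too. Astrocyte markers (5 of 5 detected) summed to 1580 to 1880 CPM in hpCTL and 1670 to 2460 CPM in hp708, with the highest sum in hp708 replicate 4, where Gfap was at 1250 CPM beside 494 to 823 CPM in all other mice. Aqp4 and Aldh1l1 were also highest in that mouse, but Slc1a3 (771 CPM) lay inside the range of the others and Gja1 was at its lowest (154 CPM, beside 177 to 195 CPM). Choroid plexus markers (5 of 5) ranged from 49.6 to 2010 CPM in hpCTL and from 96.5 to 4310 CPM in hp708, high in hpCTL replicates 2 and 4 and hp708 replicates 1 and 2, which is not the order of Dbp. Markers of subiculum and cortex (5 of 5) summed to 117 to 222 CPM in hpCTL and 111 to 195 CPM in hp708, and 3 of the 5, beside 7.7% of all tested genes in both directions, had an unadjusted p below 0.05, all lower in hp708 (Tshz2 -0.73, Slc17a6 -0.75 and Nts -1.12 on the log2 scale, lowest FDR 0.382). In the same fit, 3 of 5 CA3 markers were higher in hp708 at this unadjusted threshold (Cpne4, Bok and Iyd) and 3 of 5 microglial ones lower (Csf1r, C1qa and Tmem119), none past the FDR. Vip (-0.32, quasi-likelihood FDR 0.594) and Sst (-0.19, FDR 0.642) were also lower at this threshold, with overlapping groups. Sst was the only 1 of 5 markers of inhibitory neurons to pass it. Pvalb (-0.16) also had a value below 0, and Gad1 (0.03), Gad2 (0.03) and Slc32a1 (0.08) had values above 0. Without surrogate variables none of these CA3 and microglial markers had an unadjusted p below 0.05, Nts was the only subicular one that did, and the median log2 fold change of the 5 microglial markers was -0.07 in place of -0.23 (C1qa -0.16 in place of -0.53). Sst (-0.29) then had no unadjusted p below 0.05 either, while Vip (-0.43) did. The sums were 680 to 981 CPM in hpCTL and 741 to 1180 CPM in hp708 for CA3, and 443 to 616 and 378 to 652 CPM for microglia. Markers of inhibitory neurons summed to 644 to 768 CPM in hpCTL and 656 to 706 CPM in hp708, of oligodendrocytes to 3590 to 4820 and 3650 to 6750 CPM, of endothelium to 192 to 239 and 197 to 247 CPM, and of thalamus and habenula to 77.7 to 101 and 82.8 to 125 CPM. The part of these lists in the clock values was likewise not tested.

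How far the clock genes varied together was measured by the correlation of log2 CPM over the 8 mice for all 45 pairs, with exact permutation p-values adjusted over the 45. Dbp and Ciart correlated most closely, with Pearson r = 0.975 (exact permutation p = 9.9e-05, adjusted p = 0.00446) and Spearman rho = 0.976 (exact permutation p = 0.000397, adjusted p = 0.0179). The relation held without the 2 mice farthest from the median of Dbp (r = 0.949), with group means removed (r = 0.968) and without hp708 replicate 4 (r = 0.963). Only 2 of the 17251 other tested genes correlated with Dbp at least as closely as Ciart did, counting Ciart itself (0.0116%). Nr1d2 and Bmal1 were inversely related, with r = -0.801 (exact permutation p = 0.000694, adjusted p = 0.0156) and rho = -0.905 (exact permutation p = 0.00456, adjusted p = 0.103). Their r was -0.845 without the 2 mice farthest from the median of Nr1d2 and -0.868 without hp708 replicate 4. Of the 17251 other tested genes, 1.24% had an r with Bmal1 at least as low, counting Nr1d2 itself. By Pearson's r, Dbp with Ciart and Nr1d2 with Bmal1 were the only 2 of 45 pairs with an adjusted p below 0.05. An unadjusted p below it was found for 13 pairs. By Spearman's rho it was 1 pair, where 10 had an unadjusted p below 0.05. The share of such pairs among other genes was not counted.

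Dbp was also inversely related to Bmal1, with r = -0.851 (exact permutation p = 0.00789, adjusted p = 0.0888) and rho = -0.810 (exact permutation p = 0.0218, adjusted p = 0.184). Without the 2 mice farthest from the median of Dbp r was -0.849, and 0.777% of the other tested genes had an r with Dbp as low. This pair did not pass the adjustment. Per2 went against Dbp and Ciart, with r = -0.727 to Dbp (adjusted p = 0.127 by exact permutation, rho = -0.762, and r = -0.557 without the 2 farthest mice) and r = -0.794 to Ciart (adjusted p = 0.107 by exact permutation, rho = -0.786, and r = -0.588 without the 2 farthest mice). Neither passed the adjustment. Tef and Bhlhe41 had r = -0.920 (adjusted p = 0.0888 by exact permutation, rho = -0.786), but r was -0.339 without the 2 mice farthest from the median of Tef, hp708 replicates 2 and 4, so the relation rested on them. Many of the remaining values depended on hp708 replicate 4. Of all 45 pairs, 25 had r above 0 over the 8 mice. Dbp, Ciart, Nr1d1, Nr1d2, Tef, Per1 and Per3 are the 7 genes at their lowest in hp708 replicate 4. This group was taken from the same data, so its share of positive pairs was not independent of that choice. All 21 of its pairs had r above 0 over the 8 mice, and 9 of the 21 had r below 0 without hp708 replicate 4. For Per3, r went from 0.250 to -0.740 with Dbp, from 0.116 to -0.864 with Ciart and from 0.0714 to -0.748 with Nr1d1. For Tef it went from 0.839 to -0.218 with Nr1d2 and from 0.588 to -0.201 with Dbp. With group means removed, r was -0.742 for Nr1d2 and Bmal1, -0.808 for Dbp and Bmal1 and -0.947 for Tef and Bhlhe41. The labels name no batch.

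**Figure D4:**
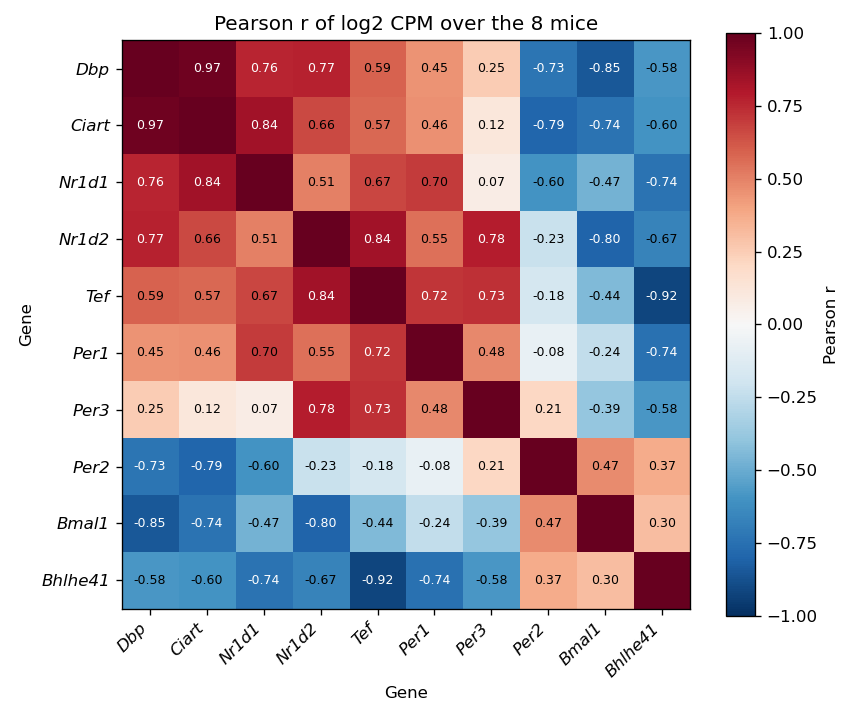
Pearson r of log2 CPM over the 8 mice for each pair of clock genes, red for positive and blue for negative. Dbp, Ciart, Nr1d1, Nr1d2, Tef, Per1 and Per3, a group taken from these same data, are the 7 genes at their lowest in hp708 replicate 4. All 21 pairs among them are positive, but only 12 without that mouse. Per2, Bmal1 and Bhlhe41 are negative to Dbp and Ciart.

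**Figure D5:**
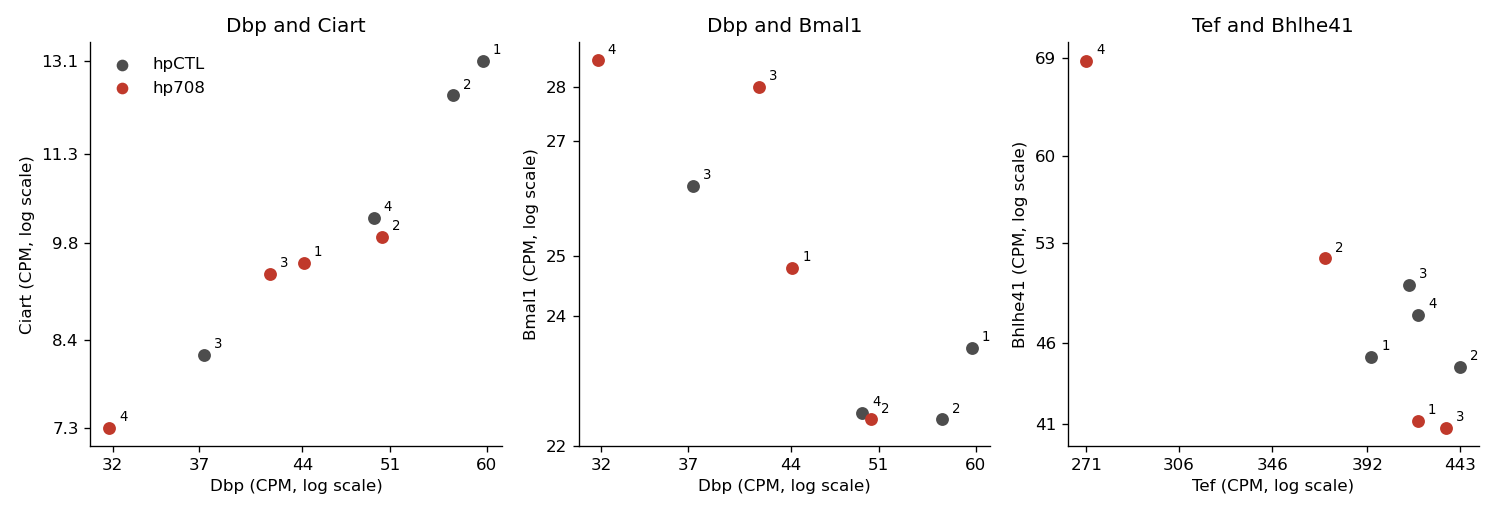
CPM of Ciart against Dbp, Bmal1 against Dbp and Bhlhe41 against Tef (both axes on log scales), 1 numbered point per mouse, hpCTL in grey and hp708 in red. Ciart rises with Dbp across both groups (r = 0.975), Bmal1 falls with it (r = -0.851), and the Tef and Bhlhe41 plot is set apart by hp708 replicate 4.

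The genes outside the list whose levels followed Dbp most closely over the 8 mice, among 14187 genes with a mean of at least 1 log2 CPM, were Pcbd2 (r = 0.975), Mypop (0.971), Dedd2 (0.969), Ccdc65 (0.962) and Them4 (0.960). Those closest to Bmal1 were Slitrk5 (r = 0.963), Mtmr12 (0.952), Zfp719 (0.949), Agfg1 (0.948) and Paqr9 (0.948). These genes were picked for their high r among many genes over only 8 mice, and the values are given as a description.

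The spread of the clock genes between mice of a group was close to that of other genes. The median SD of log2 CPM within groups was 0.203 for the 10 genes and 0.185 for all tested genes, and 5 of the 10 were above the latter. Dbp varied most (SD 0.290) and Per2 least (0.107). The 3 surrogate variables took 5.84% of the variance of Per1 over the 8 mice, 61.9% of Dbp, 69.8% of Bmal1 and 82.7% of Per2, beside a median of 67.0% over all tested genes, and only 2 of the 10 clock genes were above this median.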

How the data were processed

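PolyA-RNA from 8 mouse hippocampi was sequenced, 4 hpCTL and 4 hp708, grouped by their labels; replicates were separate animals, housed 2 to 4 per cage. Per the labels, the authors aligned to GRCm39 with STAR 2.7.8a and counted reads per gene with featureCounts 1.6.4. The deposited raw counts were used without change. Identifiers were named from GENCODE M39 (39641 of 40659), a later release than the authors used. After filterByExpr and TMM normalization, groups were compared with edgeR 4.0.16 (R 4.3.3, fitted as in edgeR 3), 3 surrogate variables of sva 3.50.0 and p-values adjusted by Benjamini-Hochberg. DESeq2 1.42.0 was an alternative. A prior count of 2 was added for log2 CPM. Standard errors were derived from fold change and F statistic. Every pair of libraries differed by more than sampling noise (chi-square per degree of freedom 10.0 to 50.2). The functions were tested on simulated counts.

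The members and gene lists were chosen with earlier results of these data known. Of each further pathway list (other clock, clock output, cold and heat, immediate early and glucocorticoid genes), genes with an unadjusted p below 0.05 are named or, if there were none, the 3 with the largest log2 fold change. Further genes of these lists with values for single mice were named after their values were seen. Cell type markers are given as sums, and those named were chosen after their values were seen. For likeness, the 5 genes with the highest Pearson r were taken. Alternatives changed the surrogate variables, test, tool, normalization, filter, replicate block and libraries, and those without surrogate variables that leave out hp708 replicate 1 or 4, and the correlations without these mice, were chosen after seeing the data. Sequences came from RefSeq (microRNA and promoters) and GENCODE (3'UTRs), and the promoter of Per2 is not analysed here.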

Additional observations from a re-analysis of the deposited data

Results flagged for a closer look

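In 104 groups of 4 mice that were checked, 5 held a mouse whose distance from the others exceeded Dixon's 95% critical value, where chance gives about 5.2 (1 in 20). Among the clock genes this was Per1 in hpCTL replicate 2, at 98.7 CPM beside 76.2 to 79.6 CPM in the other hpCTL mice. The summed CPM of the 6 clock output genes in hpCTL replicate 1 was 260, beside 238 to 240 in the rest of the group, and Coq10b in hp708 replicate 2 was at 23.6 CPM beside 16.8 to 17.5 CPM. Of the region markers, Iyd in hpCTL replicate 1 was at 5.03 CPM beside 2.40 to 2.79 CPM, and Tshz2 in hp708 replicate 1 at 53.7 CPM beside 16.1 to 16.7 CPM. The Tshz2 value of that mouse, for which the labels conflict, lay within the hpCTL range.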

How the results depend on the processing

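None of the 10 clock genes and none of the 19 other clock genes passed an FDR of 0.05 under any alternative, while the number of all genes called, 1 in the analysis reported, was 127 by the likelihood ratio test, 3 by edgeR 4's quasi-likelihood, 96 by DESeq2 with 3 surrogate variables and 2 by DESeq2 without any. It was 0 when none, 1 or 2 of them were used, 12 in the unfiltered table and 0 among genes with 10 counts or more throughout. Leaving out hpCTL replicates 1 to 4 gave 6, 4, 0 and 7 genes, and leaving out hp708 replicates 1 to 4 gave 56, 3, 6 and 3. Without surrogate variables it was 0 also with hp708 replicate 1 or 4 left out. The number of clock genes with an unadjusted p below 0.05, 0 as reported, was 2 in the unfiltered table (Dbp and Nr1d2, beside 5.87% of all genes tested there), 3 under the filter at 10 counts (Tef, Nr1d1 and Bhlhe41, beside 5.72%), and 0 to 5 with each replicate left out, the highest without hp708 replicate 1. The median log2 fold change of the 10 genes was -0.168, -0.059, -0.0627 and -0.15 without hpCTL replicates 1 to 4 and -0.207, -0.163, -0.164 and -0.025 without hp708 replicates 1 to 4, beside -0.0589 as reported. It was -0.181 under the filter at 10 counts and between -0.118 and -0.0359 under the remaining alternatives.

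Of 210 alternative values of single clock genes, 184 kept their direction and 26 reversed it. Per1 was at -0.117 under the filter at 10 counts and ranged from -0.101 to 0.139 with each replicate left out. With each replicate left out, Per2 ranged from -0.0148 to 0.0473, Per3 from -0.208 to 0.0979, Nr1d1 from -0.216 to 0.0332 and Bhlhe41 from -0.147 to 0.262. Nr1d1 was also -0.209 under the filter at 10 counts and -0.122 without surrogate variables. Per3 was 0.0954 without surrogate variables and hp708 replicate 4. Bhlhe41 was 0.113, 0.0617 and 0.0364 with no, 1 and 2 surrogate variables, 0.119 with DESeq2 and none, 0.0166 unfiltered, 0.21 under the filter at 10 counts and 0.204 without surrogate variables and hp708 replicate 1. Dbp, Tef, Nr1d2, Bmal1 and Ciart kept their direction throughout, but with each replicate left out Dbp ranged from -0.367 to -0.155, Tef from -0.348 to -0.0192, Nr1d2 from -0.23 to -0.0784, Bmal1 from 0.11 to 0.174 and Ciart from -0.331 to -0.151, and Tef was -0.32 and Nr1d2 -0.199 under the filter at 10 counts. The causes were not tested. The labels do not say that replicate numbers pair the mice. The deviations of same-numbered mice correlated between -0.0411 and 0.0177. Mice of different numbers were not compared in this way, so these values cannot show whether any mice were paired. The replicate block in place of the surrogate variables gave 1 gene called and 0 clock genes, a median of -0.0849 and 0.0822 for Bhlhe41. The block and the surrogate variables together would leave no residual degrees of freedom and were not run. Ciart, the least counted of the 10 genes, had 177 to 368 counts a library.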
